A study of Mus musculus with 9 samples.

Results

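The genes described here encode the mitochondrial respiratory chain and ATP synthase, with the assembly factors that share the Nduf name, in lung tumour cells grown with or without macrophage-lineage cells. Members were taken by gene name from the table of values: names beginning with Ndufa, Ndufb, Ndufc, Ndufs or Ndufv, the genes Sdha, Sdhb, Sdhc and Sdhd, names beginning with Uqcr, Cox4 to Cox8 or Atp5, the genes Cyc1 and Cycs, and every name beginning with mt-. The rule used no measured value. It found 96 of the 12339 genes in the table, of which 88 are encoded in the nucleus and 8 in the mitochondrial genome. The nuclear members comprise 37 subunits of complex I, 8 complex I assembly factors, 4 subunits of complex II, 9 of complex III, cytochrome c (Cycs), 12 of complex IV and 17 of ATP synthase. The mitochondrial members are mt-Nd1 to mt-Nd6 of complex I, mt-Cytb of complex III and mt-Co1 of complex IV. Other mitochondrially encoded genes, including the remaining oxidase and ATP synthase subunits and the ribosomal RNAs, were not analysed here.

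The respiratory chain passes electrons from NADH (at complex I) and from succinate (at complex II) through coenzyme Q, complex III and cytochrome c to oxygen at complex IV. Complexes I, III and IV pump protons out of the mitochondrial matrix, and ATP synthase lets them flow back to make ATP. Complex II is encoded wholly in the nucleus, whereas complexes I, III, IV and ATP synthase join nuclear subunits to a few made inside the organelle from mitochondrial DNA, which is read as long transcripts that are then cleaved.

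RNA was measured in GFP-positive cells sorted from spheroids of KP-GFP, a mouse lung tumour line labelled as C57BL/6, in 9 libraries. The tumour cells had grown with lung tissue-resident macrophages (TRMs), with monocytes from bone marrow, or alone, with 3 libraries in each of the 3 groups. Each spheroid started from 2500 tumour cells, with 5000 added TRMs or monocytes in the co-cultures, and was kept for 7 days. Spheroids were pooled, 32 to a condition, and dissociated for 20 min at 37 °C, and RNA came from 20000 to 170000 sorted cells. All groups share the same tumour line, so the libraries describe 1 line, and each library averages over pooled spheroids. Nothing in the labels says that replicates came from separate cultures. The p-values therefore reflect the spread among these particular samples, and that spread may be technical.

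Levels are scaled CPM, the usual read share of a library after its size was scaled with edgeR's TMM factors. Libraries held 16001895 to 25240220 reads with TRMs, 18381707 to 24037053 with monocytes and 21341370 to 32771448 alone, and members received 161773 to 356032 reads per library. Calls were made in limma, at a p below 0.05 after Benjamini-Hochberg adjustment over the 12326 genes tested, which included all 96 members. Markers of lung tumour epithelium were abundant in every library. Their summed level was 12860 to 15904 with TRMs, 9172 to 14088 with monocytes and 13136 to 14912 alone, with 6 of 6 markers measured. Of these Cldn4, a tight junction protein, was called lower in both co-cultures (0.607-fold with TRMs, limma adjusted p = 0.0477, and 0.479-fold with monocytes, 0.00472), and Cdh1, the epithelial cadherin, lower with monocytes (0.513-fold, limma adjusted p = 0.00173). Of 14 macrophage markers 8 were measured, and their summed level was 65.8 to 130.3 with TRMs, 62.5 to 73.4 with monocytes and 23.1 to 62.6 alone. Of those 8, Mrc1 was called higher in both co-cultures and Chil3 and Siglecf lower with monocytes, while Adgre1, Marco, Fcgr1 and the C1q genes were not analysed here. Of 6 monocyte markers 4 were measured (37.1 to 46.2 with TRMs, 30.9 to 51.8 with monocytes, 44.3 to 55.5 alone), and of 6 general leukocyte markers 3 (1.39 to 10.0 with TRMs, 2.37 to 3.54 with monocytes, 4.93 to 6.17 alone). The monocyte markers moved in different directions beneath their sum. F13a1 was called higher in both co-cultures (14.0-fold with TRMs, limma adjusted p = 4.14e-05, and 13.4-fold with monocytes, 3.61e-05), and the more abundant Plac8 lower with monocytes (0.431-fold, limma adjusted p = 0.0212), as was Ptprc of the leukocyte markers. With monocytes Ptprc and Siglecf were near the floor, at 0.02 to 0.57 and 0.03 to 0.19 scaled CPM (0.92 to 3.46 and 1.05 to 1.79 alone). Without monocyte replicate 3 Ptprc was no longer called (limma adjusted p = 0.0800). Epcam was then called lower with monocytes (limma adjusted p = 0.00827) and Plac8 lower with TRMs (0.0130). Listed neutrophil and red cell markers were not analysed here. Monocyte replicate 3 stood apart on the second principal component of all genes (-75.9, against 50.2 and 12.3 for the other monocyte libraries). Some of the counts, medians and sums that move with it are also given without it.

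Few respiratory chain genes changed in either co-culture, and those that did were all nuclear and all higher. With TRMs, Uqcrc1 of complex III and Atp5a1 of ATP synthase rose, and no member fell. Called higher with TRMs were thus 2 of 96 members, against 10.2% of all genes tested, and called lower were 0 of 96, against 8.15%. Across members 7 of 96 had an unadjusted limma p under 0.05, all of them higher with TRMs. Over all genes tested 3844 of 12326 did, 2083 higher and 1761 lower. With monocytes, 11 of 96 members rose, against 14.7% of all genes, and 0 of 96 fell, against 12.7%. There 15 members were higher and 2 lower at an unadjusted limma p under 0.05, against 2460 and 2259 of the 12326 genes tested. The median log2 fold change of the members was -0.06 with TRMs (-0.00 over all genes) and 0.11 with monocytes (-0.02 over all genes). In bulk RNA, fewer cells of a type and less RNA per cell cannot be told apart. The summed macrophage markers given above were also higher in the TRM co-culture than alone, with Mrc1 the sole call among the 8 measured. Mrc1 and F13a1 were higher and Cldn4 lower in both co-cultures, while the summed monocyte markers were not higher in either. With monocytes Chil3, Siglecf, Plac8, Ptprc and Cdh1 were called lower, Siglecf and Ptprc at levels near the floor. The part of these markers in the differences was not tested.

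The count of calls moved with single libraries. With TRMs it was 0 without alone replicate 1 or TRM replicate 2, 1 without alone replicate 2, alone replicate 3, TRM replicate 3 or monocyte replicate 2, and 5 without TRM replicate 1, when mt-Nd4, mt-Nd5, mt-Nd6 and Atp5l were called lower. The share of all genes called with TRMs moved as well, from 18.4% to 11.7% and 9.89% where no member was called. It was 11.3% to 17.3% where 1 member was called and 15.4% where 5 were. With monocytes 2 members were called when alone replicate 1 was left out, 4 when alone replicate 3 was, and 6 when monocyte replicate 2 was. The share of all genes called with monocytes fell there too, from 27.3% to 18.9%, 18.2% and 22.3%. Without monocyte replicate 3, the library that stood apart, 5 members were called higher with monocytes (Sdhc, Uqcrc1, Cox6a1, Atp5a1 and Atp5d, against 15.1% of all genes) and 4 lower (mt-Nd2, mt-Nd6, mt-Cytb and Ndufa6, against 13.6%). The median over members with monocytes was -0.13 without that library and 0.33 without monocyte replicate 1, so its sign depended on 1 library. That of the 88 nuclear members was -0.08 without monocyte replicate 3, against 0.14 with it. With TRMs the median over members lay between -0.16 (without TRM replicate 1) and 0.05 (without alone replicate 2).

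**Figure D1:**
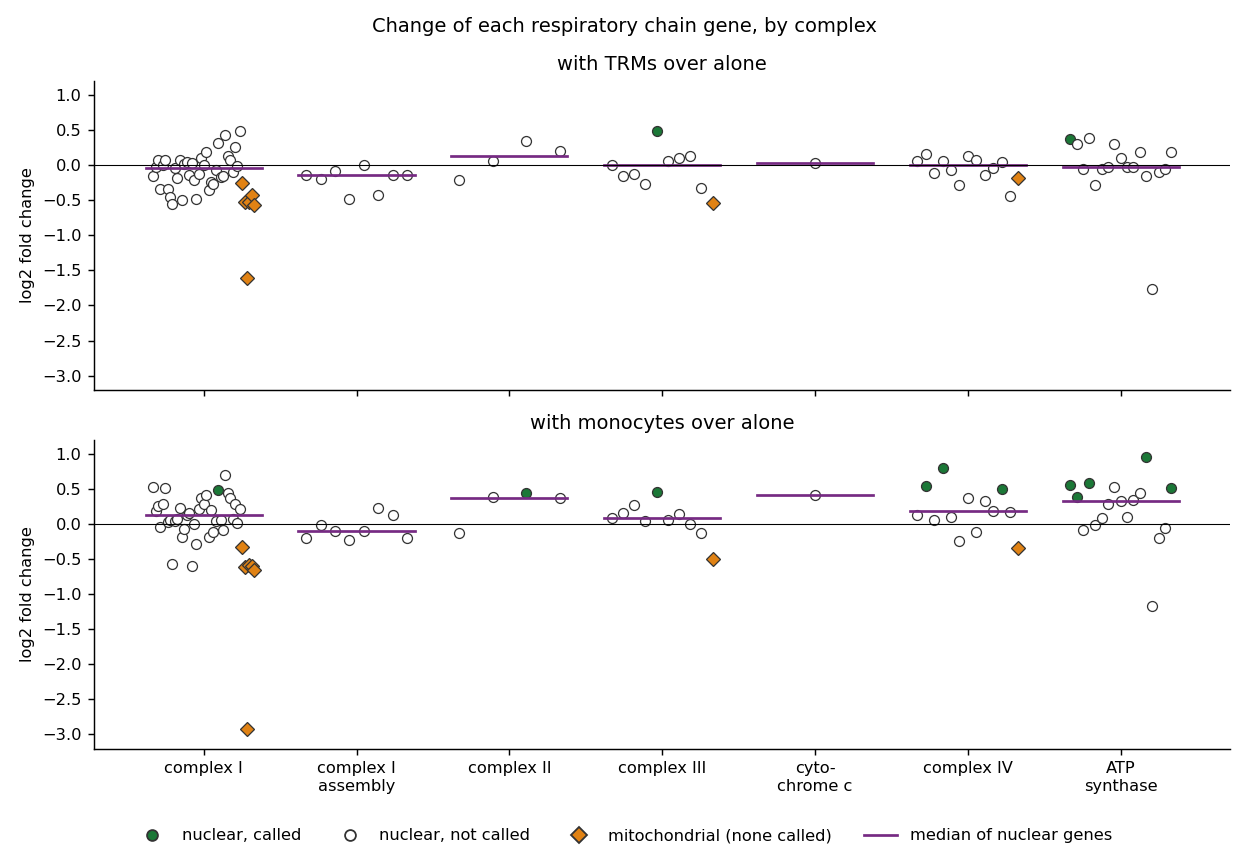
Log2 fold change (vertical axis) of each of the 96 members, grouped by complex, with TRMs over alone (top) and with monocytes over alone (bottom). Filled circles are nuclear genes called by limma (2 with TRMs, 11 with monocytes), open circles are nuclear genes not called, diamonds are mitochondrial genes, and the bars are medians of the nuclear genes. All 8 diamonds lie below 0 in both panels, and the ATP synthase column holds 5 of the 11 calls with monocytes, among 17 nuclear genes. Of all genes tested, 14.7% were called higher with monocytes.

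Complex I, the NADH dehydrogenase, had no call with TRMs among its 37 nuclear subunits, and none of those described here was called with monocytes. Of all genes tested, 10.2% were called higher and 8.15% lower with TRMs, and 14.7% and 12.7% with monocytes. Ndufv1, the flavin-bearing core subunit that takes electrons from NADH, had 145, 137 and 128 with TRMs, 131, 147 and 139.8 with monocytes and 112, 124 and 108 alone, without overlap of either co-culture with the libraries alone. Ndufv3, a small accessory subunit of the same arm, had 38.4, 40.0 and 38.5 with TRMs, 28.1, 30.7 and 38.7 with monocytes and 29.6, 26.3 and 27.4 alone. The 3 TRM libraries agreed closely and lay above every library alone, with a limma adjusted p of 0.0550, while the monocyte libraries overlapped those alone. Ndufa6, an accessory subunit, ran the other way, at 38.6, 26.4 and 32.6 with TRMs, 19.3, 29.9 and 54.3 with monocytes and 44.9, 51.0 and 45.4 alone. It was lower in every TRM library than in any library alone (limma adjusted p = 0.220), while monocyte replicate 3 exceeded all libraries alone. Without that library Ndufa6 was called lower with monocytes. The 7 core nuclear subunits had a median log2 fold change of -0.01 with TRMs and 0.07 with monocytes, and the 30 other subunits -0.08 and 0.15, the last being -0.16 without monocyte replicate 3. Ndufs5 and Ndufb2, accessory subunits at low levels, gave the widest nuclear differences of complex I with monocytes, 0.70 and -0.59 on the log2 scale, with overlapping groups and limma adjusted p of 0.339 and 0.241. The 8 assembly factors had no call, against the same shares of all genes, with medians of -0.14 with TRMs and -0.10 with monocytes. Ndufaf1, the most abundant of them per kilobase, had 25.7, 22.0 and 20.7 with TRMs, 18.8, 21.3 and 25.9 with monocytes and 26.2, 24.3 and 24.9 alone. Ndufaf4 had the largest log2 fold change of the 8 with TRMs (-0.49, limma adjusted p = 0.196), and Ndufaf6 that with monocytes (0.23, limma adjusted p = 0.584).

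Complex II, succinate dehydrogenase, also serves the citric acid cycle and needs no mitochondrial gene. Sdhc and Sdhd anchor it in the membrane, and Sdha and Sdhb hold the flavin and the iron-sulphur clusters. Sdhc had 86.8, 94.1 and 84.2 with TRMs, 87.4, 97.0 and 99.6 with monocytes and 67.6, 69.9 and 71.0 alone. Every co-culture library was thus above every library alone. With monocytes the difference was called (1.36-fold, log2 fold change 0.44 ± 0.13, SE, limma adjusted p = 0.0193), and this was lost without alone replicate 1 or 3 or monocyte replicate 2. With TRMs it was 1.27-fold, with a limma adjusted p of 0.0776.

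The catalytic subunit Sdha had 201, 211 and 213 with TRMs, 212, 223 and 223 with monocytes and 252, 236 and 233 alone. Here the co-culture libraries all lay below those alone, the reverse of Sdhc, though the log2 differences were -0.21 with TRMs and -0.13 with monocytes (limma adjusted p = 0.242 with TRMs and 0.428 with monocytes). Sdhd had 208, 185 and 174 with TRMs, 214, 191 and 228 with monocytes and 177, 161 and 153 alone, with a limma adjusted p of 0.0518 for monocytes. Sdhb had 119, 99.7 and 95.0 with TRMs, 107, 123 and 168 with monocytes and 96.0, 113 and 92.7 alone, and both co-cultures overlapped the libraries alone. Summed over its 4 subunits, complex II had 615, 589.6 and 566 with TRMs, 621, 634 and 719 with monocytes and 593, 579.9 and 549.7 alone. The monocyte libraries were above those of both other groups. In the means they were 1.15-fold over the libraries alone, and 1.09-fold without monocyte replicate 3.

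Complex III, cytochrome bc1, hands electrons from coenzyme Q to cytochrome c, and Uqcrc1 is 1 of its large core proteins on the matrix side. Uqcrc1 (chromosome 9, 108936633 to 108949623, plus strand, GRCm38) had 276, 263 and 259 with TRMs, 244, 247 and 295 with monocytes and 185, 192 and 193 alone. The libraries alone were tightly grouped and lay below all 6 co-culture libraries. Uqcrc1 rose 1.40-fold with TRMs (log2 fold change 0.49 ± 0.12, SE, limma adjusted p = 0.0139) and 1.37-fold with monocytes (0.46 ± 0.12, limma adjusted p = 0.0134). Without alone replicate 1 the limma adjusted p was 0.0591 with TRMs and 0.0551 with monocytes, and the TRM call was also lost without TRM replicate 2. Uqcrc1 was the sole call among the 9 nuclear subunits of complex III, against 10.2% of all genes called higher with TRMs and 14.7% with monocytes. Cyc1, the cytochrome c1 subunit, had 131, 120.3 and 115 with TRMs, 132, 117 and 137 with monocytes and 113, 140.1 and 113 alone, with all groups overlapping. Cycs, the soluble cytochrome c that carries electrons onwards, had 21.7, 16.6 and 15.7 with TRMs, 18.9, 23.5 and 28.2 with monocytes and 15.4, 22.3 and 15.4 alone. Its log2 fold change was 0.03 with TRMs and 0.41 with monocytes (limma adjusted p = 0.942 with TRMs and 0.202 with monocytes).

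Complex IV, cytochrome c oxidase, reduces oxygen to water. None of its 12 nuclear members was called with TRMs and 3 rose with monocytes, all small subunits around the catalytic core. Of all genes tested, 10.2% were called higher with TRMs and 14.7% with monocytes. Cox6a1 (chromosome 5, 115345642 to 115348981, minus strand, GRCm38), the widely expressed form of subunit VIa, had 85.6, 90.1 and 67.4 with TRMs, 143, 114 and 147 with monocytes and 60.2, 98.2 and 77.2 alone. Every monocyte library was above every library of the other 2 groups, which overlapped each other. Cox6a1 rose 1.74-fold with monocytes (log2 fold change 0.80 ± 0.19, SE, limma adjusted p = 0.00678), and the call held in all 17 alternative settings (other tests, scalings, filters and left-out libraries), with a highest adjusted p of 0.0377. With TRMs its log2 fold change was 0.06 ± 0.19 (limma adjusted p = 0.855).

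Cox5a, another nuclear subunit of the oxidase, had 59.2, 63.2 and 56.6 with TRMs, 81.0, 67.7 and 87.2 with monocytes and 47.7, 63.0 and 50.8 alone. Cox8a, a small membrane subunit, had 71.9, 68.9 and 59.0 with TRMs, 90.3, 81.2 and 103 with monocytes and 53.0, 80.9 and 61.8 alone. In both genes alone replicate 2 came close to the lowest monocyte library. The log2 fold change with monocytes was 0.55 ± 0.16 for Cox5a (SE, limma adjusted p = 0.0184) and 0.50 ± 0.17 for Cox8a (limma adjusted p = 0.0432). The Cox5a call was lost without alone replicate 1 or 3 or monocyte replicate 3, and the Cox8a call in 10 of 17 alternative settings, among them those that left out replicate 1 or 3 of the libraries alone or with monocytes, or replicate 2 or 3 with TRMs. Cox4i1, per kilobase the most abundant nuclear member of the complex, had 265, 229 and 214 with TRMs, 169, 244 and 361 with monocytes and 205, 246 and 226 alone, so that monocyte libraries gave both the lowest and the highest value. Ndufa4, named for complex I but now assigned to complex IV, had 71.4, 45.8 and 52.6 with TRMs, 62.7, 72.8 and 132 with monocytes and 68.6, 83.2 and 74.4 alone. Cox7a2 and Cox7a2l were the sole measured pair of the paralogues sought. Cox7a2l had log2 fold changes of 0.07 with TRMs and -0.12 with monocytes, and Cox7a2 0.12 and 0.37 (no limma adjusted p under 0.399).

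ATP synthase had 5 of the 11 calls with monocytes and 1 of the 2 with TRMs. These were 5 and 1 of its 17 nuclear members, against 14.7% of all genes tested called higher with monocytes and 10.2% with TRMs. Without monocyte replicate 3, 2 of the 5 were kept, Atp5a1 and Atp5d, so that 2 of 17 were called higher, against 15.1% of all genes. Atp5a1 and Atp5b encode the alpha and beta subunits that form the catalytic head. Atp5a1 (chromosome 18, 77773729 to 77782869, plus strand, GRCm38) had 728, 806 and 774 with TRMs, 834, 906 and 874 with monocytes and 584, 626 and 571 alone. The 3 groups did not overlap, with the monocyte libraries highest. Atp5a1 rose 1.47-fold with monocytes (log2 fold change 0.55 ± 0.12, SE, limma adjusted p = 0.00438), a call held in all 17 alternative settings. It rose 1.30-fold with TRMs (0.37 ± 0.12, limma adjusted p = 0.0466), a call lost in 8 of 17, among them 7 that left out 1 library, where the limma adjusted p reached 0.163. Those libraries were the 3 alone, the 3 with TRMs and monocyte replicate 2.

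Atp5b had 1066, 1130.0 and 997 with TRMs, 1155, 1123 and 1132 with monocytes and 846, 919.7 and 835 alone. As for Atp5a1, no co-culture library overlapped those alone. Its log2 fold change was 0.30 with TRMs (limma adjusted p = 0.121) and 0.39 with monocytes (limma adjusted p = 0.0319), and the monocyte call was lost in 7 of 17 alternative settings, among them those without alone replicate 1 or 3 or any 1 monocyte library. Atp5d, the delta subunit of the rotating central stalk (chromosome 10, 80138632 to 80145818, plus strand, GRCm38), had 162, 129 and 123 with TRMs, 152, 142 and 177 with monocytes and 96.4, 117 and 102 alone. It too separated both co-cultures from the libraries alone. Atp5d rose 1.49-fold with monocytes (0.58 ± 0.15, SE, limma adjusted p = 0.0111), a call lost only without alone replicate 1 (adjusted p = 0.0521), and with TRMs the limma adjusted p was 0.0893.

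Atp5o, which links the head to the peripheral stalk, had 75.2, 61.7 and 54.2 with TRMs, 63.5, 80.2 and 95.4 with monocytes and 56.8, 55.9 and 53.1 alone. Its reads are uncertain, since 41.1% of its 50-base subsequences occur in other annotated genes. Atp5k, the membrane subunit e, had 3.91, 4.27 and 2.91 with TRMs, 8.13, 6.39 and 9.53 with monocytes and 4.13, 5.37 and 3.05 alone, a low gene in which the monocyte libraries were all above the others. The log2 fold change with monocytes was 0.51 ± 0.17 for Atp5o (SE, limma adjusted p = 0.0428) and 0.96 ± 0.34 for Atp5k (limma adjusted p = 0.0493), and the calls were lost in 9 and 12 of 17 alternative settings. For Atp5o these included leaving out any 1 library alone, TRM replicate 2 or monocyte replicate 2 or 3, and for Atp5k leaving out any 1 library other than alone replicate 2. Atp5l, the membrane subunit g, was the lowest member of the complex per kilobase and had 41, 8 and 5 reads with TRMs, 17, 22 and 27 with monocytes and 73, 62 and 41 alone (limma adjusted p = 0.169 with TRMs and 0.333 with monocytes). Summed over its 17 nuclear members, ATP synthase had 2950.0, 2895 and 2735 with TRMs, 2931, 3082 and 3548 with monocytes and 2401, 2594 and 2368 alone. Both co-cultures lay above every library alone, by 1.17-fold with TRMs and 1.30-fold with monocytes in the means, and by 1.22-fold with monocytes when monocyte replicate 3 was left out. Atp5a1 and Atp5b made up most of this sum in every library. The 17 members did not rise as a set with TRMs, where their median log2 fold change was -0.02 and 10 of 17 lay below 0. With monocytes the median was 0.33, with 5 of 17 below 0, and 0.06 without monocyte replicate 3.

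**Figure D2:**
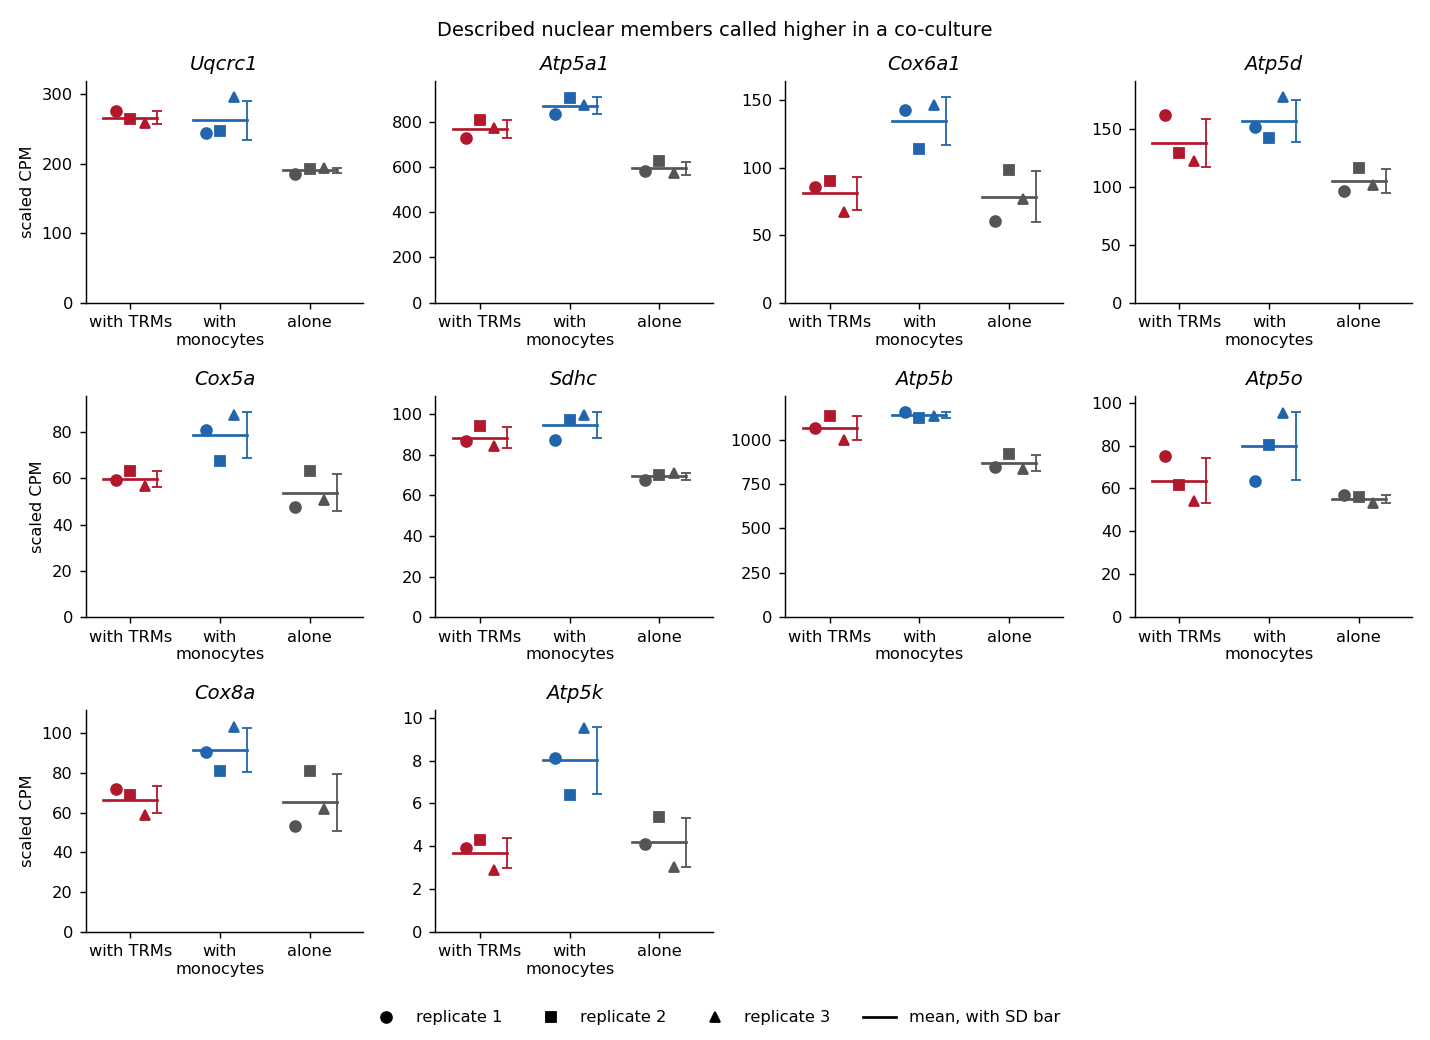
Level in scaled CPM (vertical axes, from 0) of the described nuclear genes called higher in a co-culture, in each library. Symbols mark replicates 1 to 3, horizontal lines the means and bars the SD (n = 3 per group). The libraries alone lie below every monocyte library in every panel, and for Uqcrc1, Atp5a1, Atp5d, Sdhc and Atp5b below every TRM library as well.

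The called members can be compared in their promoters, 300 bases from 250 before to 50 after the transcription start as listed by RefSeq for GRCm38.p6. The windows of 3 of the 4 members with the smallest p with monocytes are shown. Atp5a1, which had the smallest limma adjusted p of the 4 (0.00438), was left out because of its chromosome, under a rule set for the promoters. Capitals mark the letters GCGCATGC on either strand, a core of the sites bound by the transcription factor NRF1, a known regulator of respiratory genes.
Cox6a1: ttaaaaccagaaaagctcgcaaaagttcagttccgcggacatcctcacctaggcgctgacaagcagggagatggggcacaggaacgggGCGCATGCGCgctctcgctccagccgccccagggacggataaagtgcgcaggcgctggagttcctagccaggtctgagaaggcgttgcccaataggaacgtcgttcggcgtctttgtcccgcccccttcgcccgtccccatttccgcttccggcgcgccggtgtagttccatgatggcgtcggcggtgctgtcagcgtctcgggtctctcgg
Atp5d: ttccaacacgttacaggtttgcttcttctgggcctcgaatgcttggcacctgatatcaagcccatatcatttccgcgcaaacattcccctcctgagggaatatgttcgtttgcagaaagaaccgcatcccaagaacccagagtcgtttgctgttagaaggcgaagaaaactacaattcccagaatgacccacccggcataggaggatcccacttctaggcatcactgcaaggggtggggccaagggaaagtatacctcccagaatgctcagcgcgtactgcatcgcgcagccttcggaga
Uqcrc1: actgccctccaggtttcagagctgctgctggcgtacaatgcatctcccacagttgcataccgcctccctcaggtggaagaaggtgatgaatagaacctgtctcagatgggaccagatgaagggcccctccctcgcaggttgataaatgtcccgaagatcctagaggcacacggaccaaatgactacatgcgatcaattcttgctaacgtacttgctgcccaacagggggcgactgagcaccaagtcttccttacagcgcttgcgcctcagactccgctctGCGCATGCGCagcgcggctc
The Cox6a1 window (chr5:115348909-115349208, minus strand) held the letters on both strands, overlapping, at -162 and -160 from the start. The Uqcrc1 window (chr9:108936398-108936697, plus strand) held the same overlapping pair at 30 and 32 bases after the start. No match was found in the Atp5d window (chr10:80142025-80142324, plus strand), the first that the table lists for that gene. Among the 72 nuclear members with a window, the NRF1 letters were in 13 (18.1%), against 5.96% of the 9765 genes tested that had a window. The letters ACCGGAAG, read by ETS factors such as GABP, were in 8 members (11.1%, against 5.42%), and AAGATGGC, read by YY1, in 10 (13.9%, against 5.28%), on either strand. At least 1 of the 3 motifs was in 30 members (41.7%, against 15.6%). Of 8 members called with monocytes that had a window, Cox6a1, Uqcrc1 and Atp5k held the NRF1 letters, and none held either of the other motifs. A match describes these letters and is not a bound site.

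None of the 8 mitochondrially encoded genes was called in either co-culture, against 8.15% of all genes called lower with TRMs and 12.7% with monocytes. Yet all 8 had a log2 fold change below 0 in both. Their medians were -0.52 with TRMs and -0.59 with monocytes, against -0.03 and 0.14 for the 88 nuclear members, and -0.73 with monocytes without monocyte replicate 3. mt-Cytb, the electron-carrying core of complex III and per kilobase the most abundant member (1408 scaled CPM per kilobase over all libraries), had 1660.4, 1007 and 1491 with TRMs, 903, 1569 and 1933 with monocytes and 2049, 2122 and 1757 alone. mt-Co1, the catalytic subunit of complex IV, had 1923, 1221 and 1589 with TRMs, 923, 1614 and 1821 with monocytes and 1859, 1841 and 1594 alone. In both genes TRM replicate 2 and monocyte replicate 1 were the low libraries. mt-Cytb was lower in all 3 TRM libraries than in any library alone, with a log2 fold change of -0.54 ± 0.25 (SE, limma adjusted p = 0.164), and with monocytes it was -0.49 (limma adjusted p = 0.169). For mt-Co1 the groups overlapped (-0.18 with TRMs and -0.34 with monocytes), and 51.1% of its 50-base subsequences occur in other annotated genes.

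The remaining mitochondrial genes encode membrane subunits of complex I. mt-Nd1 had 887, 453 and 557 with TRMs, 352, 639 and 857 with monocytes and 781, 779 and 617 alone. mt-Nd2 had 334, 148 and 200.0 with TRMs, 117, 219 and 317 with monocytes and 308, 365 and 258 alone. In both, TRM replicate 1 and monocyte replicate 3 reached the range of the libraries alone. mt-Nd4 had 384, 169 and 244 with TRMs, 184, 265 and 289 with monocytes and 391, 392 and 305 alone, and mt-Nd5 had 929, 294 and 453 with TRMs, 342, 473 and 536 with monocytes and 858, 652 and 537 alone. These were lower in every monocyte library than in any library alone, with log2 fold changes of -0.58 ± 0.25 and -0.60 ± 0.32 (SE, limma adjusted p = 0.107 and 0.194), though for mt-Nd5 the highest monocyte library was almost level with the lowest alone.

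mt-Nd6, the sole member read from the opposite strand, had 108, 39.0 and 60.3 with TRMs, 39.9, 60.1 and 88.0 with monocytes and 102, 104 and 77.7 alone. TRM replicate 2 and monocyte replicate 1 were again the low libraries. It lies from 13552 to 14070 of the mitochondrial genome and overlaps the end of mt-Nd5 (11742 to 13565), and since no source says that the kit marks strand, reads in the overlap cannot be told apart. mt-Nd3 was nearly undetected, with 12, 3 and 6 reads with TRMs, 0, 5 and 10 with monocytes and 18, 52 and 20 alone, and 98.0% of its 50-base subsequences also occur elsewhere in the annotation. mt-Nd4 shares 62.2% of its own. Without TRM replicate 1, mt-Nd4, mt-Nd5 and mt-Nd6 were called lower with TRMs and mt-Nd4 also with monocytes, and without monocyte replicate 3, mt-Nd2, mt-Nd6 and mt-Cytb were called lower with monocytes. In the TRM co-culture 1 mitochondrial and 5 nuclear members were lower without overlap, against 18.5% of all genes tested, and 8 nuclear members higher, against 20.8%. In the monocyte co-culture the counts were 3 mitochondrial and 2 nuclear lower, against 19.2%, and 14 nuclear higher, against 21.3%. Without monocyte replicate 3 they were 6 mitochondrial and 13 nuclear lower, against 25.6%, and 15 nuclear higher, against 26.9%.

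**Figure D3:**
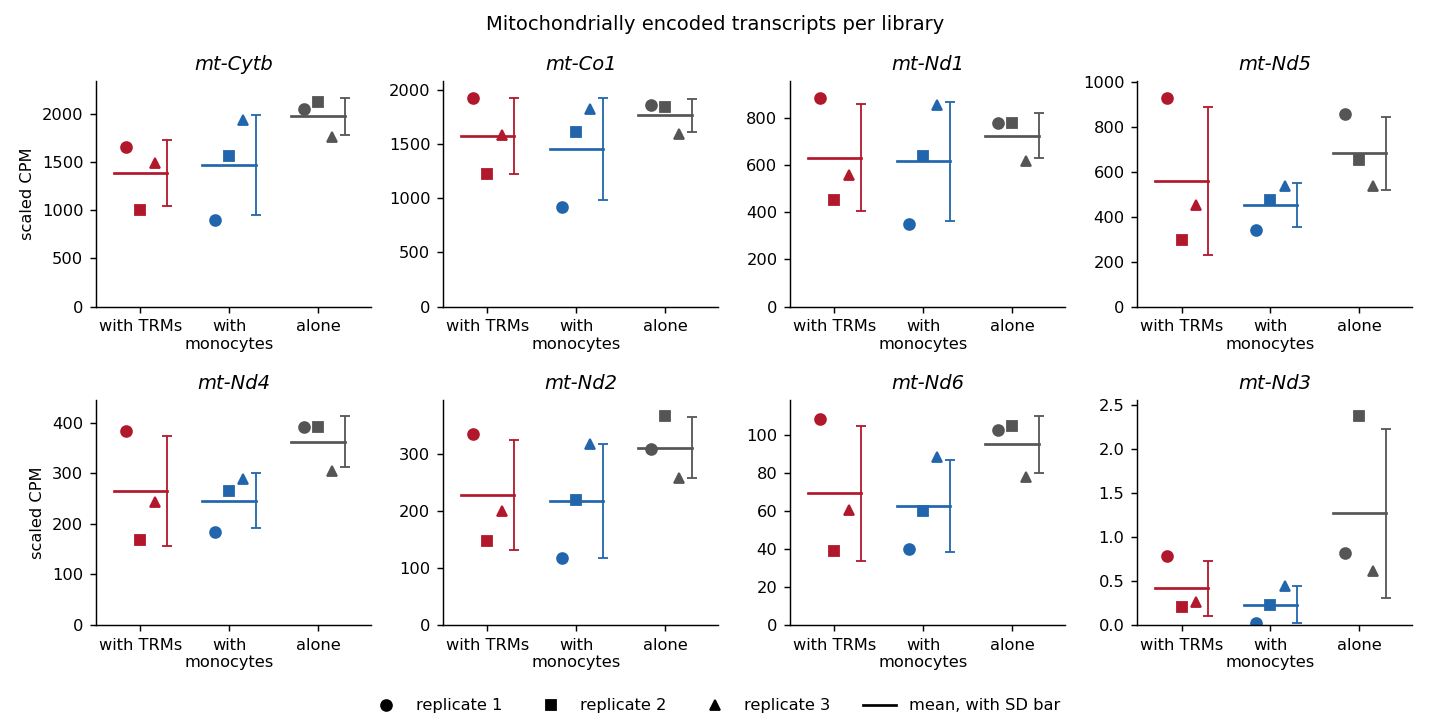
Level in scaled CPM (vertical axes, from 0) of the 8 mitochondrially encoded genes in each library. Symbols mark replicates 1 to 3, lines the means and bars the SD (n = 3 per group). TRM replicate 1 and monocyte replicate 3 lie near the libraries alone in most panels, while TRM replicate 2 and monocyte replicate 1 lie lowest.

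The balance of mitochondrial to nuclear transcripts was lower in every monocyte library than in any library alone. The summed level of the 88 nuclear members was 6614, 6206 and 5916 with TRMs, 6179, 6711 and 8288 with monocytes and 5538, 6232 and 5552 alone. The summed level of the 8 mitochondrial members was 6224, 3331 and 4593 with TRMs, 2862, 4839 and 5842 with monocytes and 6349, 6259 and 5146 alone. Neither sum separated a co-culture from the libraries alone. Divided within each library, the mitochondrial sum was 0.941, 0.537 and 0.776 of the nuclear sum with TRMs, 0.463, 0.721 and 0.705 with monocytes and 1.15, 1.00 and 0.927 alone. All 3 monocyte libraries were below all libraries alone, and TRM replicate 1 overlapped them. Among single complexes, the nuclear sums of complexes I, III and IV overlapped between each co-culture and the libraries alone, with ratios of means of 0.998, 1.12 and 0.989 with TRMs and 1.15, 1.17 and 1.25 with monocytes. Leaving out monocyte replicate 3, the monocyte ratios were 1.00, 1.06 and 1.05. The nuclear sum had a log2 difference of 0.28 with monocytes, which was 0.16 without that library. The log2 difference of the mitochondrial to nuclear ratio was -0.48 with TRMs and -0.73 with monocytes, and it does not depend on how libraries were scaled. Leaving out 1 library kept it between -0.66 and -0.26 with TRMs and between -0.84 and -0.52 with monocytes, and without TRM replicate 2 it was -0.26. The mitochondrial sum by itself had a log2 difference of -0.45 with monocytes, which was -0.15 without monocyte replicate 1 and -0.66 without monocyte replicate 3, and of -0.37 with TRMs, which was -0.14 without TRM replicate 2 and -0.59 without TRM replicate 1. As a share of all reads the mitochondrial members took 0.622%, 0.316% and 0.447% with TRMs, 0.288%, 0.481% and 0.580% with monocytes and 0.667%, 0.646% and 0.523% alone.

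**Figure D4:**
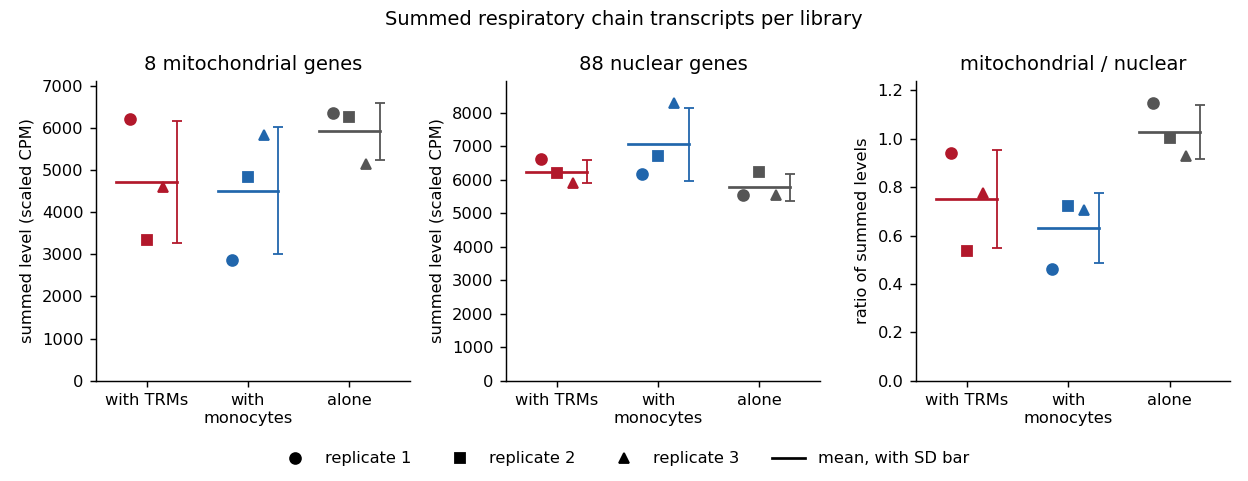
Summed level of the 8 mitochondrial genes (left) and the 88 nuclear genes (middle), in scaled CPM, and their ratio (right), in each library, with lines for means and bars for SD (n = 3 per group). In the right panel the monocyte libraries (0.463 to 0.721) lie below the libraries alone (0.927 to 1.15), and TRM replicate 1 (0.941) overlaps them.

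The co-cultures were compared with each other directly, since both were set against the same libraries alone. By limma no member was called (0 of 96, against 0.325% of all genes called higher with TRMs, 0.073% called lower and 0.398% called either way). None was called by edgeR's quasi-likelihood test either, against 0.357% of all genes, and DESeq2 called 1, Cox6a1, against 2.67% of all genes. At an unadjusted limma p under 0.05 there were 8 of 96 members, all lower with TRMs than with monocytes. Over all genes tested there were 1437 of 12326, of which 767 were higher and 670 lower. The log2 fold change was below 0 in 75 of 96 members, with a median of -0.18 (-0.00 over all genes). Without monocyte replicate 3 it was below 0 in 53 of 96, with a median of -0.02, and the median was -0.37 without monocyte replicate 1. In Cox6a1 it was -0.73 ± 0.19 (SE, limma adjusted p = 0.113) and in Atp5k -1.12 ± 0.34 (limma adjusted p = 0.182). Members lower in every TRM library than in any monocyte library numbered 8, against 8.62% of all genes, and 0 were higher, against 7.55%. Without monocyte replicate 3 the counts were 8 lower, against 15.5%, and 5 higher, against 14.4%. With all libraries these 8 were Cox6a1, Cox8a, Cox5a, Atp5a1, Atp5k, Ndufa8, Ndufa2 and Ndufaf6. The mitochondrial genes had a median of 0.09, and the log2 ratio of mitochondrial to nuclear sums was 0.25 higher with TRMs than with monocytes, with overlapping libraries. That log2 difference was 0.06 without TRM replicate 1, 0.04 without monocyte replicate 1 and 0.47 without TRM replicate 2.

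The monocyte libraries differed more among themselves in these genes than the other groups did. The median SD of the log2 level over nuclear members was 0.18 with TRMs, 0.41 with monocytes and 0.18 alone, against 0.21, 0.28 and 0.21 over all genes. The monocyte value was 0.22 without monocyte replicate 3 over nuclear members and 0.22 over all genes. These last SDs are of 2 libraries and cannot be set directly beside those of 3. Monocyte replicate 3 was the highest of the 9 libraries in 66 of 88 nuclear members (75.0%), against 13.8% of all genes tested. Monocyte replicate 1 was the lowest in 35 (39.8%), against 18.1% of all genes, and in 5 of 8 mitochondrial members. Transcript length moved with this spread. Monocyte replicate 3 over replicate 1 had a median ratio of 1.99 in the 39 nuclear members with transcripts under 700 bases, 1.75 in the 23 between 700 and 1200, and 1.26 in the 25 longer ones. Over all genes tested the same ratio was 1.61, 1.32 and 0.967. Spearman's rho between length and this log2 ratio was -0.38 over 87 nuclear members and -0.25 over 12265 genes, a description of points that share the same 2 libraries. The part of transcript length in the monocyte result was not tested. Called higher with monocytes were 4 of 39 nuclear members in the shortest class (10.3%, against 10.4% of all genes in it), 2 of 23 in the middle one (8.70%, against 15.9%) and 5 of 25 in the longest (20.0%, against 14.7%).

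**Figure D5:**
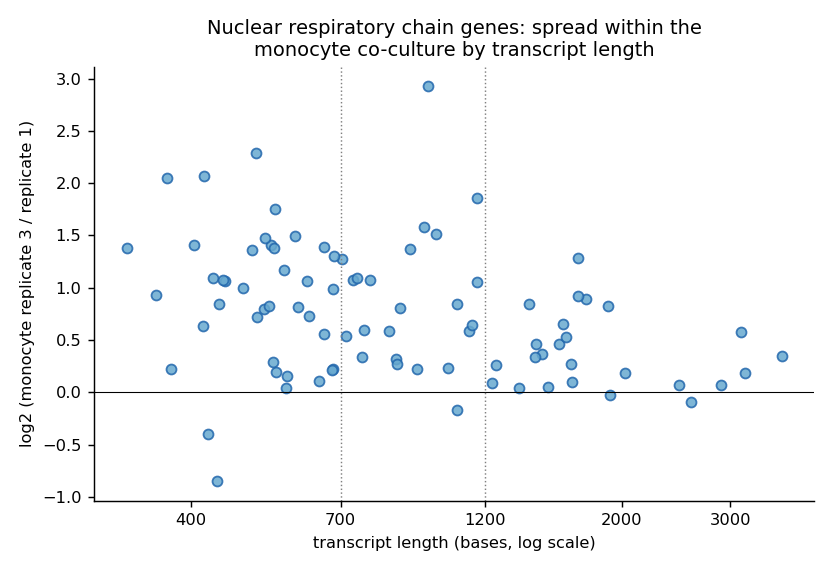
Log2 ratio of the level in monocyte replicate 3 to that in monocyte replicate 1 (vertical axis) against transcript length in bases (log axis) for 87 nuclear members, 1 point per gene. Dotted lines mark 700 and 1200 bases. Most points lie above 0, and the median ratio is 1.99 to the left of the first line and 1.26 to the right of the second.

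Genes that build, supply or regulate the chain were examined as lists. The counts of every list stand beside the shares of all genes tested. These were 10.2% called higher and 8.15% lower with TRMs, and 14.7% and 12.7% with monocytes. Of 10 complex I assembly genes outside the Nduf names, none was called with TRMs and 1 rose with monocytes, Foxred1 (list medians -0.01 and 0.18 on the log2 scale). Of 15 genes that assemble complexes II and III and ATP synthase, 1 rose in each co-culture (medians 0.01 with TRMs and 0.16 with monocytes, 0.05 without monocyte replicate 3). This was Atpaf2, a chaperone for the alpha subunit of the ATP synthase head, with 36.4, 39.8 and 37.3 with TRMs, 42.9, 45.9 and 44.8 with monocytes and 27.4, 27.5 and 28.1 alone (limma adjusted p = 0.0434 with TRMs and 0.00337 with monocytes). All 3 groups were separate, in the same order as for Atp5a1. Of 22 cytochrome oxidase assembly genes, Higd1a rose in both co-cultures and Cmc2 with monocytes (medians -0.03 with TRMs and 0.08 with monocytes). Without monocyte replicate 3 that monocyte median was -0.08, and Cox17 was called lower with monocytes. Higd1a, a hypoxia-inducible protein that associates with complexes III and IV, had 40.6, 40.7 and 42.5 with TRMs, 18.2, 21.1 and 26.1 with monocytes and 10.0, 14.6 and 10.7 alone. It was 3.55-fold higher with TRMs (limma adjusted p = 6.55e-05) and 1.86-fold with monocytes (limma adjusted p = 0.00564).

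Of 19 genes for mitochondrial DNA upkeep, transcription and RNA stability, Ssbp1, which coats single-stranded mitochondrial DNA, fell with TRMs and Polrmt, the mitochondrial RNA polymerase, rose with monocytes. Ssbp1 had 21.7, 23.1 and 23.6 with TRMs, 32.8, 29.3 and 35.1 with monocytes and 38.8, 36.7 and 33.3 alone (log2 fold change -0.67 with TRMs, limma adjusted p = 0.0104). Polrmt had 51.2, 60.5 and 51.5 with TRMs, 82.9, 54.8 and 67.3 with monocytes and 52.8, 38.1 and 48.1 alone (0.55 with monocytes, limma adjusted p = 0.0364), a sign opposite to that of the mitochondrial transcripts. The median of the 19 was -0.18 with TRMs and -0.19 with monocytes. Of 9 regulators of respiratory genes, Esrra rose and Ppargc1a, a coactivator of mitochondrial biogenesis, fell with TRMs, and Yy1 fell with monocytes (medians -0.14 with TRMs and -0.32 with monocytes). Ppargc1a had 4.54, 1.68 and 2.14 with TRMs, 2.41, 1.44 and 6.46 with monocytes and 6.31, 6.50 and 15.3 alone (log2 fold change -1.76 with TRMs, limma adjusted p = 0.0470, and -1.60 with monocytes, 0.0515). Only monocyte replicate 3 overlapped the libraries alone, and without it Ppargc1a was called lower with monocytes, while the calls of Polrmt and Cmc2 were lost.

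The citric acid cycle and pyruvate dehydrogenase list had calls in both directions. Of 22 genes tested, 3 rose and 2 fell with TRMs, against 10.2% and 8.15% of all genes. With monocytes 6 rose and 2 fell, against 14.7% and 12.7%. Idh3a, a subunit of the NADH-producing isocitrate dehydrogenase, had 125, 132 and 139 with TRMs, 152, 171 and 178 with monocytes and 85.5, 103 and 93.2 alone, and the groups did not overlap (limma adjusted p = 0.0180 with TRMs and 0.000488 with monocytes). Dlst, of the oxoglutarate dehydrogenase complex, and Pdk1, a kinase that switches pyruvate dehydrogenase off, also rose in both, while Dld and Pdk2 fell in both. Mdh2, Cs and Pdk3 rose with monocytes. Pdk1 had 157, 219.8 and 214 with TRMs, 106, 130.3 and 169 with monocytes and 78.1, 68.0 and 77.0 alone. The list medians were nonetheless near 0, at -0.05 with TRMs and 0.01 with monocytes (-0.06 without monocyte replicate 3). Of 13 coenzyme Q synthesis genes none was called with TRMs, and Coq2 and Coq5 rose with monocytes (medians 0.02 with TRMs and 0.20 with monocytes). Without monocyte replicate 3 that monocyte median was 0.14, and Coq10b was called lower with monocytes. Of 8 genes tied to oxygen-dependent remodelling of respiration, Bnip3, Higd1a, Pdk1 and Bnip3l rose and Epas1 fell with TRMs, and Bnip3, Pdk1 and Higd1a rose with monocytes (medians 0.64 with TRMs and 0.23 with monocytes). Bnip3, a mitophagy receptor, had 121, 169.8 and 174 with TRMs, 48.7, 71.4 and 80.7 with monocytes and 9.08, 19.5 and 14.5 alone. In none of these lists was a gene called between the co-cultures by limma, though without monocyte replicate 3 Bnip3 and Higd1a were called higher with TRMs than with monocytes.

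In the authors' deposited table for TRMs, 2 of 93 members listed were higher and 2 lower, against 12.0% and 11.7% of all genes in that table. The members higher in the authors' deposited table were again Uqcrc1 and Atp5a1, and the lower ones were Ndufa6 and mt-Cytb. In the authors' deposited table for monocytes, 9 of 93 members were higher, all of them among the 11 called here, against 14.4% of genes, and 2 were lower, mt-Nd4 and mt-Nd5, against 13.8%. The authors' deposited table thus adds mitochondrial genes as lower that limma on the 9 libraries did not call.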

How the data were processed

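RNA of sorted GFP-positive tumour cells was sequenced from SMART-Seq v4 cDNA made from 1 ng of RNA, per the labels' protocols, and strand marking is not stated. STAR 2.5, edgeR and the mm10 build are named in the submitters' processing notes, and no source used here gives the counting tool. The values deposited by the authors are a scaled signal, CPM of a TMM-scaled library size, with 0.5 read added to each whole number of reads. All values (100%) gave whole reads within 1e-06. Because of the added 0.5 read, fold changes understate the change of low genes. The authors' deposited tables of comparisons hold log2 fold changes, a mean log2 level and a likelihood ratio score, per the file headers. The authors' own p-values in these tables served only to compare calls.

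Genes passed edgeR's filterByExpr (minimum count 10, minimum total 15), which removed 13 and left 12326. Log2 values were fitted with limma 3.58.1 in R 4.3.3, with a variance trend, group means over all 9 libraries and 6 residual degrees of freedom. Tests were two-sided with Benjamini-Hochberg adjustment over all genes tested. The procedure was tested on simulated data. Alternatives were edgeR 4.0.16, DESeq2 1.42.0, library-total scaling, log2(value + 1), a 1 CPM filter in 3 libraries, no filter, a replicate block, fits of only the groups compared, and leaving out each library. Replicates of a group differed beyond sampling noise (chi-square per gene 21.1 to 90.5), so none was treated as a copy.

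Members and lists were chosen with earlier results of these data known. Named genes were the mitochondrial members, the Sdh genes, Cyc1, Cycs, all called members, per complex the most abundant and the most changed, the paralogue pairs, and up to 4 called genes per list. Of the genes called, 1 is not reported here. Others named with values, such as Ndufv1, Ndufv3 and Ndufa6, were chosen after their values were seen. Positions and transcript lengths come from GENCODE M21 (GRCm38), where 94 members have 1 position. Of the members, 24 share over 10% of their 50-base subsequences with other annotated genes. Promoters come from RefSeq (GRCm38.p6).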

Additional observations from a re-analysis of the deposited data

How the results depend on the processing

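The count of members called with TRMs was 2, and became 4 with DESeq2 (adding Ndufv3 and Sdhc), 4 when only the groups compared were fitted (adding Ndufv3 and, lower, Ndufa6) and 1 with library-total scaling. Of all genes, 18.4% were called in the main fit, 21.8% with DESeq2, 22.2% when only the groups compared were fitted and 18.7% with library-total scaling. Leaving out each library in turn gave 0 to 5 members, against 9.89% to 21% of all genes. With monocytes the count was 11, became 7 with library-total scaling, and ranged from 2 to 12 when a library was left out (5 higher and 4 lower without monocyte replicate 3). The share of all genes called with monocytes was 27.3%, both in the main fit and with library-total scaling. It was 18.2% to 28.6% when a library was left out. Fitting only the groups compared called mt-Nd4 lower with monocytes. Between the co-cultures the count was 0 (against 0.398% of all genes), became 1 with DESeq2 (against 2.67%), and stayed at 0 without any single library. With the replicate number as a block the counts were 2, 9 and 0, against 19.4%, 28.5% and 0.641% of all genes. There 8 of the 11 monocyte calls were kept. Same-numbered libraries of different groups had deviations correlated between -0.03 and 0.43, not over 0.1 in every pair, and alone replicate 2 correlated better with TRM replicate 3 (0.27) than with its own number, so the numbers were not taken to pair samples. The summed nuclear level with TRMs had a log2 difference of 0.11, but the median of member log2 values turned this to -0.034, and the cause was not tested. It was 0.029 with library-total scaling and 0.072 without TRM replicate 1. With monocytes the nuclear difference of 0.28 became 0.12 as a median of member log2 values and 0.16 without monocyte replicate 3. Over the 32 members chosen to be named, all settings and comparisons together lost 60 calls and gained 17, 54 uncalled values changed sign, and 1498 values kept their direction and side of the threshold. Outside these 32, calls were gained for Ndufv3 (with TRMs, in 4 settings), Ndufa6 (lower, in 1 setting with TRMs and 1 with monocytes), and Ndufa2, Ndufb8 and Atp5j2 (each with monocytes without 1 library). An alternative without mitochondrial ribosomal and transfer RNAs was not run, since these were not analysed here. Depth limits what can be said of the low genes mt-Nd3 (0 to 52 reads per library) and Atp5l (5 to 73 reads).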
